A study of Ovis aries with 14 samples.

Results

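The genes described here had their highest level in every lung of preterm lambs given noninvasive respiratory support. They are 33 of the 27054 Ensembl genes counted in the series. Levels were expressed as CPM (a gene's counts per 1000000 counts of its library) and compared across 14 libraries. A gene was taken when its mean CPM over all libraries was at least 2 and under 1000 and when all 3 libraries after noninvasive support lay above the 11 others. Its mean after noninvasive support also had to be at least 1.3 times the mean of the 11 others, and at least 1 library after invasive ventilation had to lie at or below the highest fetal library. The genes were thus chosen by their measured CPM in all 14 libraries, and their height after noninvasive support is described here without a test.

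Each library held RNA of 1 lamb (Ovis aries), taken from the lower lobe of the right lung. Preterm lambs labelled gd134 had been supported for 3 days, either by invasive mechanical ventilation of the intubated animal (IMV, n = 3) or without a tube, by noninvasive respiratory support given with a mask (NRS, n = 3). Untreated groups were fetal start (n = 3, labelled gd127, gd128 and gd131), fetal end (n = 3, labelled gd134, gd135 and gd136) and term (n = 2, labelled gd150). The labels give no breed, sex or drug for any group, and they do not say whether the term lambs had breathed air. Animal identifiers end in 18 for all NRS and term lambs, in 17 for IMV replicates 1 and 2 and fetal start replicate 1, in 18 for IMV replicate 3 and fetal start replicates 2 and 3, and in 19 for all fetal end lambs. Libraries held 23267448 to 31586235 counts, with NRS replicate 2 the shallowest.

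The preterm lung still has to divide its airspaces into alveoli, thin the walls between air and blood and build a supply of surfactant. Prolonged ventilation through a tracheal tube is a known risk for bronchopulmonary dysplasia, the chronic lung disease of preterm infants, in which that process is impaired. Noninvasive support leaves the animal breathing for itself, and in preterm lambs it is used as the gentler counterpart of invasive ventilation. The count table pairs no identifier with a gene symbol. The reference table at hand held an Ensembl identifier in 0 of its 35057 rows, so no match was possible and genes are given by identifier. For the same reason marker genes of lung tissue could not be checked, and the role of each gene cannot be stated.

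Few genes met the rule, and most met it narrowly. Of 13364 genes in the CPM range, 57 had all NRS libraries above the 11 others. Of these, 17 missed the 1.3-fold minimum and 7 more had every IMV library above every fetal one. The same rule with IMV and NRS exchanged took 99 genes. The ratio of the NRS mean to the mean of the 11 others had a median of 1.66 among the 33 genes (quartiles 1.40 and 2.07) and ran from 1.33 to 5.43. It was at least 1.5 in 21 genes, at least 2 in 10 and at least 4 in 4. Mean CPM over the 14 libraries ran from 2.01 to 75.2, with a median of 9.55. In whole tissue, more cells of a type and more RNA per cell cannot be told apart.

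The distance between the lowest NRS library and the highest other library was small for most of the 33 genes. The ratio of these CPM values had a median of 1.07 and a highest value of 2.33. It was at least 1.1 in 10 genes. Exact 95% intervals given with this ratio for single genes come from the counts of both libraries, cover counting error only and are no test, since the rule set the ratio above 1. The lowest count of any of the 33 genes in an NRS library was 71.

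**Figure D1:**
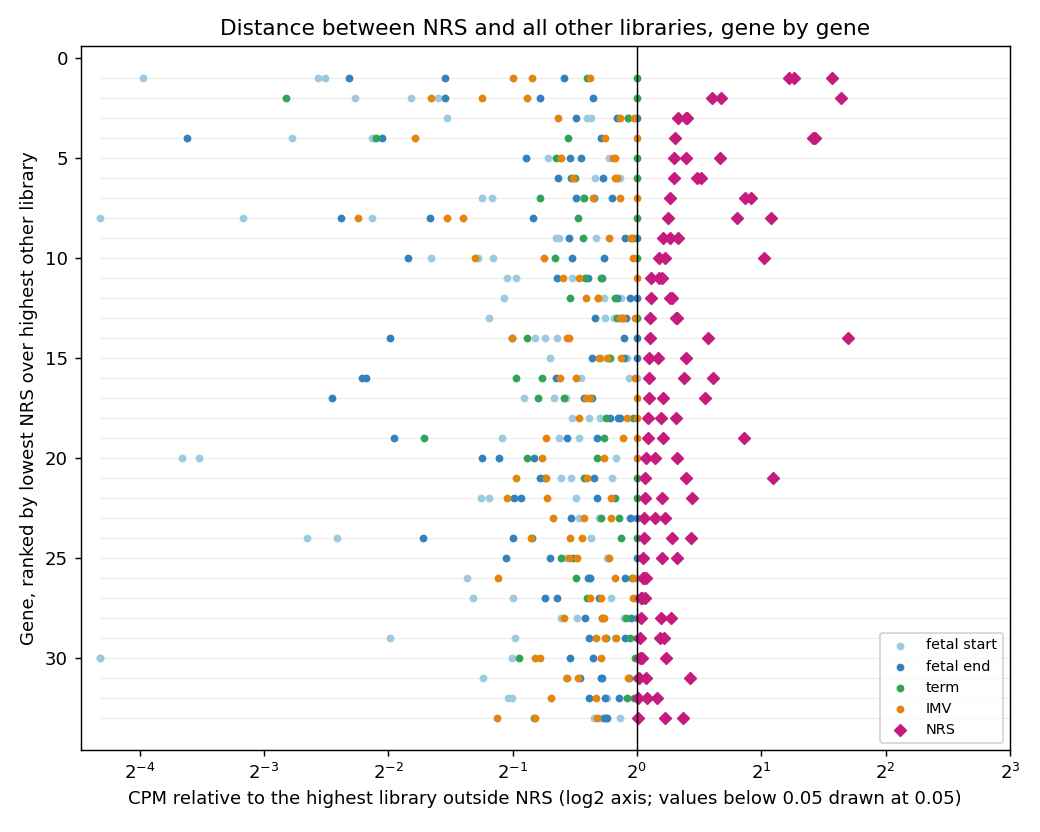
CPM of each of the 33 genes in each library, divided by the gene's highest CPM outside NRS (x, log2 axis), with genes ranked by the distance of NRS (y) and colours for the groups. NRS libraries (diamonds) lie right of the line at 1 by the rule, and only the first 2 genes have all 3 diamonds at 1.5 or more.

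The limits on ratio, separation and mean CPM cut through closely spaced values, while the condition on IMV fell in a wider break. Genes outside a limit are here those that met all other conditions. The member nearest the 1.3-fold minimum had a ratio of 1.33, and the nearest gene outside had 1.29. The narrowest separation inside was 1.0045, and the nearest gene outside had 0.999. Mean CPM was 2.01 for the least abundant member and 1.98 for the nearest gene below. For the condition on IMV, the ratio of the lowest IMV to the highest fetal library was at most 0.966 inside and at least 1.101 outside.

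ENSOARG00000017584 was the most clearly separated gene. Its level was 6.49, 6.70 and 8.26 CPM in NRS replicates 1, 2 and 3, a mean of 7.15 ± 0.96 CPM (SD, n = 3). Term libraries had 2.79 and 2.10 CPM, IMV libraries 2.14, 1.55 and 1.40, fetal end libraries 0.954, 0.559 and 1.85, and fetal start libraries 0.470, 0.177 and 0.489. The lowest NRS library thus stood 2.33-fold above the highest other library (exact 95% counting interval 1.79 to 3.07, from 181 and 82 counts). The NRS mean was 5.43 times the mean of the 11 others, and the log2 fold change was 2.03 ± 0.43 against IMV and 4.18 ± 0.48 against fetal start (SE). The gene was chosen by its height in NRS, so these fold changes and their SEs are no test. Outside NRS the gene stood lowest at fetal start and highest at term, and the fetal start libraries did not overlap with any other group.

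ENSOARG00000007274 had the next clearest separation and a wide spread among NRS lambs. It was at 56.7 CPM in NRS replicate 1, 110 CPM in replicate 2 and 54.0 CPM in replicate 3. Term libraries had 35.4 and 5.01 CPM, IMV libraries 14.96, 19.2 and 11.3, fetal end libraries 20.7, 12.2 and 27.7, and fetal start libraries 10.1, 11.7 and 7.34. All 3 NRS libraries stood above term replicate 2, the highest of the others, by at least 1.52-fold (exact 95% counting interval 1.41 to 1.65). All fetal end libraries lay above all fetal start libraries, and the term libraries lay at the 2 ends of the 11.

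The remaining genes with an NRS mean of at least 4 times that of the others were ENSOARG00000009277 and ENSOARG00000014253, the second of them named after its values were seen. ENSOARG00000009277 had 23.8, 28.8 and 16.2 CPM in NRS replicates 1 to 3 and 9.85 and 13.7 CPM in the term libraries. Its IMV libraries had 2.89, 5.19 and 4.74 CPM, its fetal end libraries 2.63, 7.67 and 4.31, and its fetal start libraries 0.542, 1.53 and 3.12. NRS was highest and term next, with IMV overlapping the fetal libraries. ENSOARG00000014253 had 6.60, 3.05 and 6.67 CPM in NRS replicates 1 to 3 and 0.577 and 1.68 CPM in the term libraries. Its IMV libraries had 2.07, 2.47 and 0.718 CPM, its fetal end libraries 2.02, 0.596 and 0.201, and its fetal start libraries 0.362, 0.567 and 0.565. NRS replicate 2 lay closer to IMV replicates 1 and 2 here than to the other NRS libraries.

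The most abundant of the 33 genes was ENSOARG00000019424, named after its values were seen. It had 116, 99.5 and 113 CPM in NRS replicates 1 to 3. The 11 others ran from 52.1 CPM (fetal end replicate 2) to 80.9 CPM (term replicate 3), with IMV at 56.5, 71.5 and 72.2 CPM. Its NRS mean was 1.66 times the mean of the others, equal to the median of the 33 genes. The groups other than NRS overlapped for this gene.

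**Figure D2:**
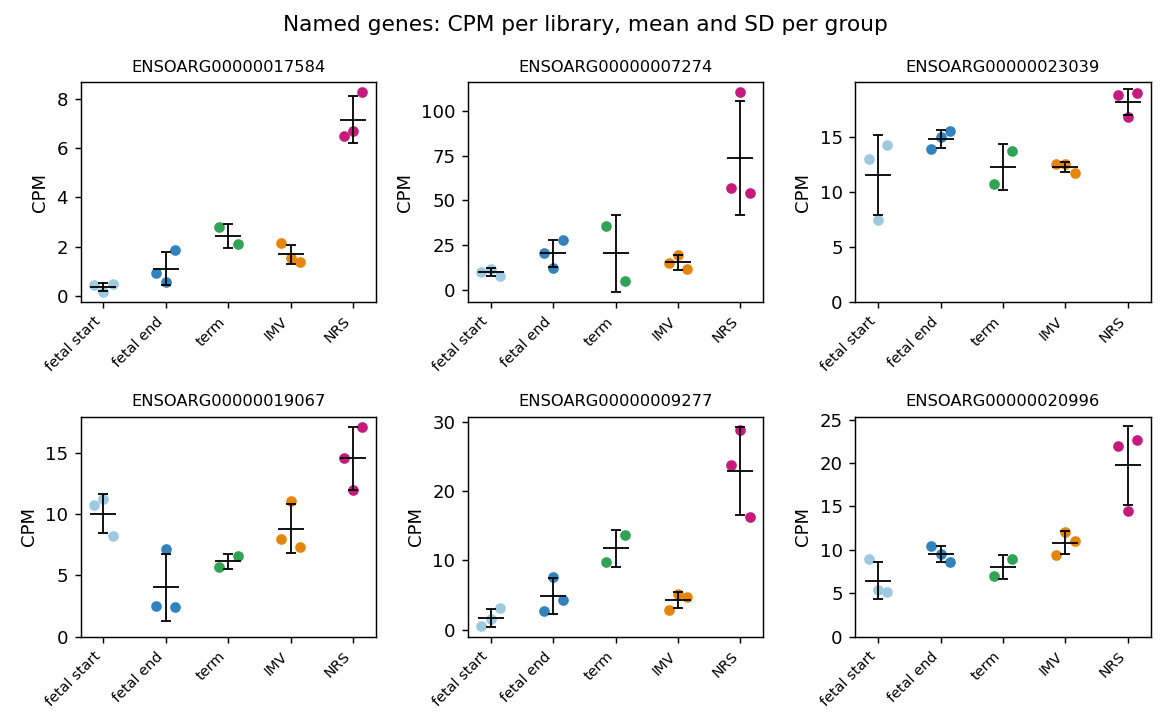
CPM per library (points) with the mean and SD of each group (bars) for 6 named genes. NRS points stand above all others in each panel, and ENSOARG00000007274 shows the spread of NRS (54.0 to 110 CPM) and of term (5.01 and 35.4 CPM).

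Taken as a set, the 33 genes had similar median levels in the 3 NRS lambs, while single genes could differ widely among them. The median level of the 33 genes, relative to the mean of the 11 others, was 1.66, 1.63 and 1.59 in NRS replicates 1, 2 and 3. NRS replicate 2 was the highest NRS library for 15 genes and the lowest for 12, where it was highest for 36.8% and lowest for 34.5% of all genes in the CPM range. Replicate 1 was highest for 9 and lowest for 9 (35.9% and 23.2% of the range). Replicate 3 was highest for 9 and lowest for 12 (27.3% and 42.3%). The coefficient of variation within NRS had a median of 10.9% over the 33 genes, where all genes of the CPM range had 11.6%, and ran from 0.874% to 59.7%. Outside NRS the median coefficient of variation of the 33 genes was above that of the range: it was 17.2% within term (11.1% for all genes of the range), 18.9% within IMV (11.3%), 16.7% within fetal end (11.9%) and 22.6% within fetal start (13.9%). The rule requires separation from all other libraries, so the spread within NRS is also shaped by the choice.

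Against each other group in turn, the median distance of NRS was largest to fetal start and smallest to term, closely followed by IMV. The ratio of the NRS mean to the term mean had a median of 1.48 over the 33 genes and ran from 1.0997 to 4.82. To IMV it was 1.53 (1.21 to 5.38), to fetal end 1.64 (1.23 to 6.37) and to fetal start 1.99 (1.33 to 18.9). The order of term and IMV is not firm: without term replicate 2 the median log2 fold change of term against IMV was -0.07. Relative to the single IMV lambs the median ratio was 1.76, 1.45 and 1.63 for IMV replicates 1, 2 and 3. IMV replicate 3 is the IMV lamb whose identifier ends in 18, as those of the NRS lambs do. Over the 5 libraries outside NRS with that ending, the median ratio was 1.62 (quartiles 1.44 and 2.29). The rule had placed every NRS library above each of these libraries, so ratios above 1 were fixed in advance. Whether the ending bears on the height of NRS was not tested. All fetal end identifiers end in 19, so that this ending and the group cannot be told apart. IMV itself lay near the fetal end level. Its log2 fold change against fetal end had a median of 0.11 in the 33 genes and -0.005 in all genes, with positive values in 19 of the 33. The rule shaped that comparison, since it asked for an IMV library at or below the highest fetal one.

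**Figure D3:**
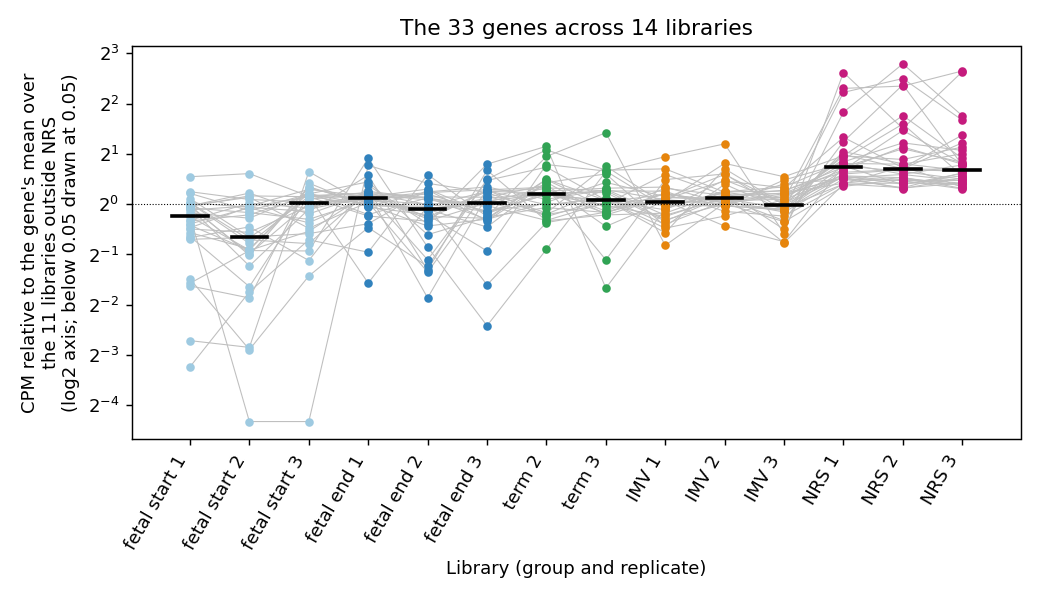
CPM of the 33 genes in each library relative to each gene's mean over the 11 libraries outside NRS (y, log2 axis), with points for genes, grey lines joining a gene and black bars for the median. The medians are 1.59 to 1.66 in the NRS libraries and 0.636 to 1.15 in the others, where fetal start replicate 2 is lowest.

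Among the 4 groups outside NRS, the 33 genes tended to be lowest at fetal start. The fetal start mean was the lowest of the 4 group means in 23 genes (69.7%), where 27.5% of all genes in the CPM range showed this. Term had the highest of the 4 means in 17 genes (51.5%, against 33.5% of the range). Fetal start replicate 2 alone was the lowest of the 11 libraries for 12 genes, where it was for 19.4% of the range. The median relative level was 0.636 in that library, 0.849 in fetal start replicate 1 and 1.01 in fetal start replicate 3, the oldest of the group at gd131. Term replicate 2 was the highest of the 11 libraries for 9 genes (15.03% of the range) and term replicate 3 for 5 (13.3% of the range). The group of lowest mean was not fixed by the rule, but these are counts without a test.

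Differences among the groups outside NRS were then tested. The rule did not ask for a difference between them, but it capped all of them below NRS and tied at least 1 IMV library to the highest fetal one, so these values are not fully independent of it. All 33 genes passed the filter on low counts, and all 33 also passed it without the NRS libraries. Fetal end against fetal start compares fetal lungs at the ages labelled gd134, gd135 and gd136 with those labelled gd127, gd128 and gd131. Identifiers end in 19 for all fetal end lambs and for no fetal start lamb. Age and identifier ending thus cannot be told apart in this comparison. Log2 fold changes had a median of 0.26 in the 33 genes and 0.004 in all 17069 genes tested, and 25 of the 33 were positive (75.8%, against 50.7% of all genes). With each library of these groups left out in turn the median stayed positive, from 0.12 without fetal start replicate 2 to 0.45 without fetal start replicate 3. No single gene passed: 0 of the 33 were called higher and 0 lower (edgeR, threshold of 0.05 on the adjusted p), where 0.00586% of all genes were called higher and 0% lower. At an unadjusted p under 0.05 the test counted 4 of the 33 and 1321 of all 17069 genes. DESeq2 called 1 of the 32 it tested, and 79 higher and 37 lower among all 16605 genes. In edgeR 1 gene passed without fetal start replicate 1 (ENSOARG00000010525, adjusted p = 4.041e-05) and 1 without fetal start replicate 3 (ENSOARG00000017069, adjusted p = 0.0442), both named after their values were seen. Each time the library left out was the highest of its group. It held 371 counts of the first gene, where the fetal start libraries kept held 1 and 0. For the second gene it held 138, where those kept held 14 and 13. All fetal end libraries lay above all fetal start libraries for 4 genes and below them for 1 gene, where 5.97% and 4.69% of the genes in the CPM range did.

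ENSOARG00000017584 had the smallest p among the positive genes, with 1.12 ± 0.66 CPM at fetal end and 0.379 ± 0.175 CPM at fetal start (SD, n = 3 each). Its log2 fold change was 1.55 ± 0.47 (SE; Benjamini-Hochberg adjusted p = 0.462 in edgeR), and fetal end did not overlap with fetal start. ENSOARG00000019067 had the smallest p among the negative genes. It had 10.7, 11.2 and 8.20 CPM in the fetal start libraries and 2.48, 7.15 and 2.42 CPM in the fetal end libraries, a log2 fold change of -1.36 ± 0.36 (SE; Benjamini-Hochberg adjusted p = 0.401 in edgeR). DESeq2 called this gene (adjusted p = 0.0336). It stood at 7.998, 11.1 and 7.32 CPM with IMV, at 5.71 and 6.59 CPM at term and at 14.6, 11.99 and 17.1 CPM with NRS, so that the fetal start libraries, not term, came closest to NRS.

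In term lungs none of the 33 genes passed the test against fetal end. Term identifiers end in 18 and fetal end identifiers in 19, so group and ending cannot be told apart here either. Log2 fold changes had a median of 0.13, against -0.01 in all genes, and 23 of the 33 were positive (69.7%, against 48.7%). The median was 0.03 without fetal end replicate 2. The test called 0 of the 33 higher and 0 lower, where 3.8% of all genes were called higher and 2.09% lower (edgeR, threshold of 0.05 on the adjusted p). At an unadjusted p under 0.05 it counted 3 of the 33 and 4432 of all 17069 genes. DESeq2 called 0 of the 32 it tested, and 1302 higher and 1103 lower among all 17048 genes. Both term libraries lay above all fetal end libraries for 6 genes and below them for 1 gene, where 22.5% and 21.6% of the genes in the CPM range did. The shares of the 33 genes were 18.2% and 3.03%.

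The positive gene with the smallest p was again ENSOARG00000017584, at 2.44 ± 0.48 CPM at term (SD, n = 2). The log2 fold change was 1.13 ± 0.47 (SE; Benjamini-Hochberg adjusted p = 0.154 in edgeR). Among the negative genes it was ENSOARG00000023039, with 10.8 and 13.8 CPM at term and 13.96, 15.01 and 15.6 CPM at fetal end. Its log2 fold change was -0.26 ± 0.22 (SE; Benjamini-Hochberg adjusted p = 0.473 in edgeR), and NRS stood at 18.8, 16.8 and 19.0 CPM. Without fetal end replicate 2, its highest fetal end library, ENSOARG00000019067 was called higher at term than at fetal end (edgeR adjusted p = 0.0267). With all libraries its log2 fold change in this comparison was 0.64 ± 0.39 (SE; Benjamini-Hochberg adjusted p = 0.322 in edgeR).

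Term against IMV compares the 2 groups to which NRS had the smallest median ratios. The condition on IMV libraries in the rule bears on this comparison. Log2 fold changes had a median of 0.05 in the 33 genes and 0.003 in all genes, and 22 of the 33 were positive (66.7%, against 50.4%). The median was -0.07 without term replicate 2, so its sign rests on that library. The test called 0 of the 33 higher and 0 lower, where 0% of all genes were called higher and 0% lower (edgeR, threshold of 0.05 on the adjusted p). At an unadjusted p under 0.05 it counted 2 of the 33 and 3047 of all 17069 genes. DESeq2 called 0 of the 32 it tested, and 470 higher and 623 lower among all 16605 genes. Both term libraries lay above all IMV libraries for 5 genes and below them for 3, where 20.3% and 17.7% of the genes in the CPM range did.

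ENSOARG00000009277 had the smallest p of the positive genes, at 11.8 ± 2.7 CPM at term (SD, n = 2) and 4.27 ± 1.218 CPM with IMV (SD, n = 3). Its log2 fold change was 1.46 ± 0.53 (SE; Benjamini-Hochberg adjusted p = 0.188 in edgeR), and the groups did not overlap. Of the negative genes ENSOARG00000020996 ranked first by p. It had 6.997 and 8.94 CPM at term, 9.43, 12.03 and 10.98 CPM with IMV and 22.0, 14.4 and 22.7 CPM with NRS. The difference of term and IMV was -0.44 ± 0.26 on the log2 scale (SE; Benjamini-Hochberg adjusted p = 0.398 in edgeR), again without overlap.

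**Figure D4:**
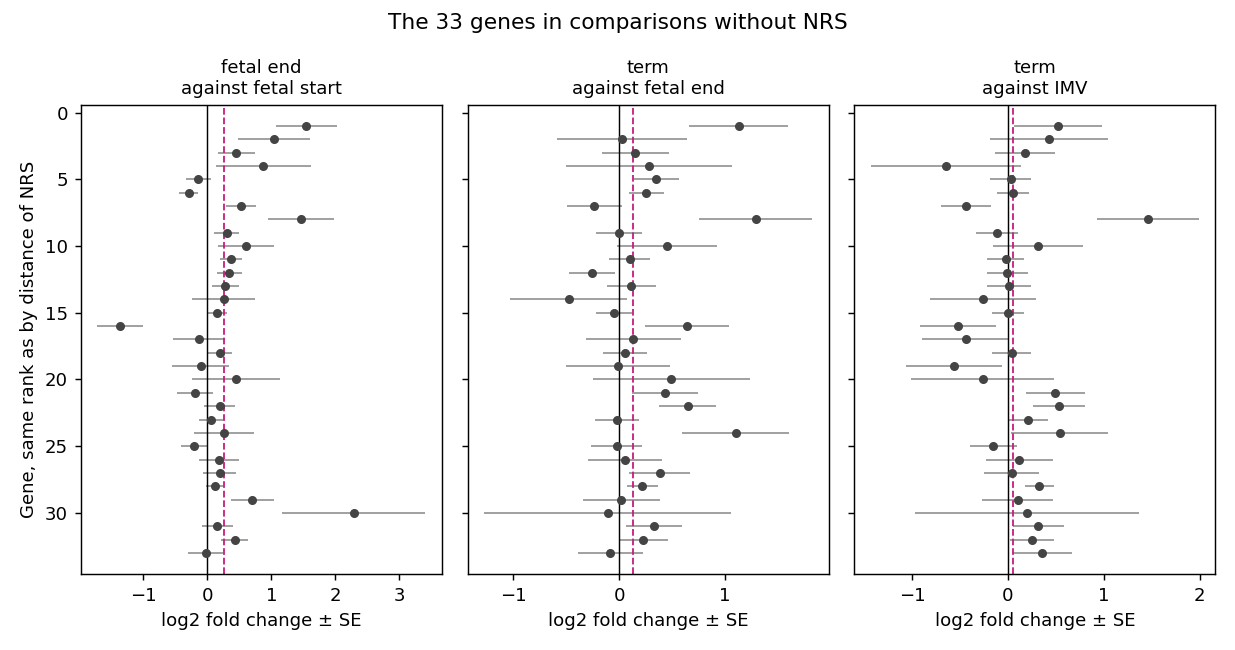
Log2 fold change with its SE (x) of the 33 genes (y, in the same order as by the distance of NRS) in the 3 comparisons without NRS libraries, with a dashed line at the median. The medians are 0.26, 0.13 and 0.05, and no gene passed the edgeR test in any panel.

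Apart from NRS, the 33 genes did not form 1 common profile. Over the 11 other libraries the Spearman correlation between 2 of the genes had a median of 0.15 in 528 pairs (quartiles -0.075 and 0.384) and ran from -0.70 to 0.85. All pairs of genes in the CPM range had a median of 0.009. Correlations above 0.5 made up 14.8% of the pairs among the 33 genes and 11.5% of all pairs, and 176 of the 528 pairs were below 0. The points share libraries, groups and depth, so these values describe the 11 libraries only.

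How many genes met the rule depended on single libraries and on the scaling. With library sizes scaled by TMM, edgeR's correction for composition, 22 of the 33 genes met the rule and no other gene joined them. NRS libraries had scaling factors of 0.996 to 1.047 and the others of 0.963 to 1.028, and a factor above 1 lowers the CPM of its library. Of the 11 genes lost, 10 no longer had every NRS library above every other one. ENSOARG00000014253 was lost because its mean CPM became 1.99, under the minimum of 2, and ENSOARG00000010525 was lost too, while the other genes named here met the rule. Leaving out 1 library gave 33 to 102 genes: the count was 58, 80 and 102 when NRS replicate 1, 2 or 3 was dropped, and 67 and 62 when term replicate 2 or 3 was. Of the 33 genes, at least 29 met the rule in each of these cases. Leaving out a library cannot undo the separation of NRS from the others. Any of the 33 could then be lost only through the conditions on mean CPM, ratio or IMV. How many were kept is therefore no measure of stability. Among only the 8 libraries with identifiers ending in 18, 60 genes met it, 16 of them from the 33. The separation of NRS cannot be lost in this subset either. The IMV condition there compares only IMV replicate 3 with fetal start replicates 2 and 3. ENSOARG00000017584 was lost by it, with 1.40 CPM in that IMV library and 0.177 and 0.489 CPM in those fetal libraries.

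**Figure D5:**
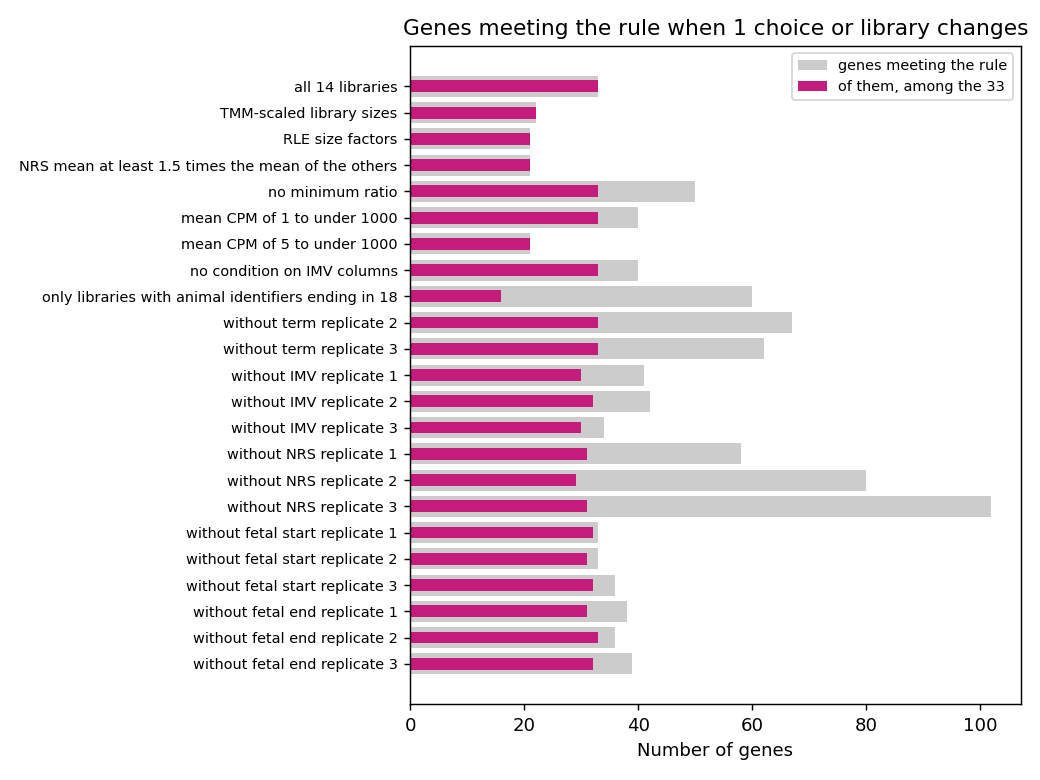
Number of genes that meet the rule (grey bars) and how many of these are among the 33 (coloured bars) when 1 setting is changed or 1 library is left out (y). The count is 22 with TMM-scaled library sizes and reaches 102 without NRS replicate 3.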

How the data were processed

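Total RNA libraries were made with a stranded kit, per the labels' protocols. The authors deposited 1 table of whole-number counts per Ensembl gene for 14 libraries, without normalization. The submitters' processing notes name cutadapt 1.16, STAR 2.7.0f, featureCounts 1.6.3, DESeq2 1.22.2 and the build Oar_v3.1, without saying what each was used for. The annotation, the strand setting and the handling of multi-mapping reads were not given in the sources used here. Genes that overlap, lie antisense to another or have a near-identical copy may therefore share reads.

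CPM was computed from column totals for the rule. Tests used edgeR 4.0.16 in R 4.3.3 (quasi-likelihood, TMM, filterByExpr with a count minimum of 10, 5 group means, 9 residual degrees of freedom), with Benjamini-Hochberg adjustment over 17069 genes and a threshold of 0.05. The SE of a log2 fold change is its size over the square root of F. DESeq2 1.42.0 was an alternative. Correlations used log2(CPM + 0.1). Counting intervals are exact binomial ones of 2 libraries' counts, and reads without molecular identifiers are not independent molecules.

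Samples were grouped by title. Libraries of the same group were compared first, with a chi-square per degree of freedom of 26.6 to 83.9, so no library repeated another of its group. Libraries of different groups were not compared in this way. The procedure was tested on simulated counts. The 33 genes and the tests were chosen with earlier results of these data known. Named genes were the 2 with the widest distance of NRS and, in each tested comparison, the gene with the smallest p in each direction where none was called. The lists of symbols drawn up for cell types and pathways could not be used, since the reference held no Ensembl identifiers to pair with names. Alternatives were other scalings, filters and limits of the rule, DESeq2, fits of fewer groups, the replicate number as a block and each library left out in turn.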

Additional observations from a re-analysis of the deposited data

How the results depend on the processing

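The number of genes meeting the rule was 33, and 21 with RLE size factors, 21 with a minimum of 1.5-fold, 21 with a mean CPM of at least 5, 50 with no minimum ratio and 60 among the libraries with identifiers ending in 18. It ran from 33 to 102 with 1 library left out, which cannot undo the separation of NRS from the others. The median ratio of NRS to the 11 others was 1.66, 1.61 with TMM and 1.62 to 1.70 with 1 library left out. Each of these values keeps the same 33 genes, chosen for their height in NRS, so they are no measure of stability. In fetal end against fetal start, DESeq2 called 1 of the 32 genes it tested among the 33 (ENSOARG00000019067, log2 fold change -1.36). Leaving out 1 library gave 0 to 1 in edgeR. ENSOARG00000010525, named after its values were seen, passed without fetal start replicate 1 (edgeR adjusted p = 4.041e-05), and ENSOARG00000017069, likewise, without fetal start replicate 3 (edgeR adjusted p = 0.0442). For both genes the library left out was the highest of the fetal start group. In term against fetal end the range was 0 to 1, the 1 being ENSOARG00000019067 without fetal end replicate 2, and in term against IMV it was 0 in each case. With 1 term library left, that library is assumed to vary like the other groups. The same replicate numbers come from different animals. The correlation of same-numbered deviations ran from -0.102 to 0.103, and 0 of the 3 fetal end libraries correlated best with the fetal start library of their own number. With the replicate number as a block 0 of the 33 genes passed in each comparison. Over all genes, term against fetal end called 648 higher and 356 lower in edgeR, 1302 and 1103 in DESeq2, 309 and 141 with the replicate block, 398 and 205 without the NRS libraries and 87 and 54 when only these 2 groups were fitted. Term against IMV called 0 in edgeR and 470 higher and 623 lower in DESeq2, and fetal end against fetal start called 1 in edgeR and 79 higher and 37 lower in DESeq2. Depth limits the precision of the distance between the lowest NRS and the highest other library: for the gene with the fewest counts in an NRS library (71) the exact 95% counting interval of the ratio was 0.883 to 1.73.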

Other observations

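In 5 of the 33 genes, picked after their values were seen, NRS replicate 2 stood at least 1.5 times above each other NRS library. They are ENSOARG00000007274, ENSOARG00000009442, ENSOARG00000021156, ENSOARG00000007957 and ENSOARG00000024410. ENSOARG00000021156 had 3.95, 8.64 and 2.86 CPM in NRS replicates 1, 2 and 3, and the 11 other libraries ran from 0.67 CPM in fetal end replicate 2 to 2.66 CPM in fetal end replicate 3. ENSOARG00000007957 had 20.2, 34.6 and 22.0 CPM with NRS, 15.9 and 5.82 CPM at term and 12.9, 4.92 and 15.3 CPM in fetal end replicates 1, 2 and 3. Fetal end replicate 2 was the lowest fetal end library for 4 of the 5 genes, where it was for 27.8% of all genes in the CPM range and for 15 of the 33. Term replicate 2 lay above term replicate 3 for 4 of the 5, where it did for 49.2% of the range. The Spearman correlation over the 11 libraries outside NRS had a median of 0.32 in the 10 pairs of these genes and ran from -0.41 to 0.68, so they did not share a single profile there.

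ENSOARG00000010525 was nearly silent in 2 lambs. It had 1 count in fetal start replicate 2 and 0 counts in fetal start replicate 3, where the other 12 libraries held 371 to 821 counts. ENSOARG00000017069 had 14 and 13 counts in fetal start replicates 1 and 2 and 138 in replicate 3, with 66 to 189 counts in the other groups. The level of both genes thus split within the fetal start group, with replicate 2 on the low side for both and replicates 1 and 3 on opposite sides.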
